A study of Mus musculus with 11 samples.

Results

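The cells described here were hepatic stellate cells (HSCs) of uninjured mouse liver that carried messenger RNA of the chemokine Cxcl10. They were chosen by their own reads: in the droplet library of healthy mice prepared by the HSC isolation, a cell with at least 300 detected genes and at most 30% mitochondrial UMIs (unique molecular identifiers, each standing for 1 captured RNA molecule) was a member if it held at least 3 Cxcl10 UMIs. This rule found 1793 members among 6850 filtered cells of the library, 26.2% (95% exact binomial interval 25.1 to 27.2%), and 30999 cells passed the same filters across all 5 droplet libraries. The comparison population was the 3563 cells of the library with no Cxcl10 UMI, and the 1494 cells with 1 or 2 Cxcl10 UMIs entered neither group.

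All mice were adult male Pdgfrb-BAC-eGFP reporters on the C57BL/6 strain, in which the Pdgfrb promoter drives green fluorescent protein in mesenchymal cells, and the sorted cells were GFP positive and negative for the leucocyte marker CD45 and the endothelial marker CD102. Each droplet library pooled 3 mice without a record of which cell came from which mouse. The libraries were healthy and HSC isolation, 72 h after 1 dose of carbon tetrachloride (CCl4) and HSC isolation, 6 weeks of CCl4 and HSC isolation, healthy and PF (portal fibroblast) isolation, and 6 weeks of CCl4 and PF isolation. The HSC isolation perfused the liver with pronase and collagenase, digested it further outside the body and enriched the cells on a density gradient, whereas the PF isolation minced and digested tissue without a gradient. A separate plate of full-length Smart-seq2 libraries held cells of 3 further healthy mice.

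CXCL10 is a chemokine that binds CXCR3 on activated T cells and natural killer cells. Its gene is transcribed after interferon signalling, through interferon regulatory factors such as IRF1, and after inflammatory or danger signalling through NF-kB, of which NFKBIZ is an inducible nuclear cofactor. Tissue dissociation itself is known to switch on immediate early genes such as Fos, Jun, Atf3 and Egr1, heat shock genes and chemokine genes in many cell types. In the healthy liver, HSCs store vitamin A in the space between hepatocytes and sinusoidal endothelium, and they differ in their gene programme between the portal and the central vein.

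Of the library's 6852 deposited barcodes, the 6850 filtered cells held 46392040 UMIs, with a median of 6718 per cell. The members were deeper than the zero cells (the cells with no Cxcl10 UMI), with a median of 7422 against 6325 UMIs and 2690 against 2480 genes. Their median mitochondrial share was 1.67% against 1.81%. Levels are therefore given as CPM, the UMIs of a gene summed over a group per 1000000 UMIs of that group, and intervals are exact 95% Poisson or binomial intervals, which cover counting error only. With 1 library per condition there is no replicate, so no test was made, and a ratio of at least 2 in either direction served as a rule of size.

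The stellate part of the label held. On the 7 class markers (sum 26344 CPM in members, 27894 CPM in zero cells), 1793 of 1793 members fell in the stellate class of the library. Markers of endothelial cells and leucocytes were near 0: the endothelial list summed to 3.97 CPM in members and 3.43 CPM in zero cells with Tie1 its most abundant gene, and the leucocyte list summed to 3.10 and 3.02 CPM with Lyz2 its most abundant gene. Ptprc, Clec4f, Adgre1 and Cd3e, which define leucocytes, Kupffer cells, macrophages and T cells, had no UMI in any member. The hepatocyte list summed to 55.2 CPM in members and 71.5 CPM in zero cells, led by Alb at 21.2 and 25.3 CPM. The smooth muscle list, whose genes stellate cells share, summed to 607 and 569 CPM, led by Tagln at 400 and 361 CPM. Cells with UMIs of at least 3 different genes of an endothelial, leucocyte, hepatocyte, cholangiocyte, mesothelial or Schwann cell list were rare in both groups. They were 26 members (1.45%) and 72 zero cells (2.02%). All but 1 of the 6850 cells fell in the stellate class, so no cell type known to lack Cxcl10 was at hand to measure how much free RNA adds to the UMI counts. The word stressed in the working label rests on the gene lists given below, and the cells are called Cxcl10-positive here.

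Cxcl10 (ENSMUSG00000034855, mm10, chr5:92346638-92348889, minus strand) had 21680 UMIs in the library, of which 91.1% lay in the members. The members held a median of 8 Cxcl10 UMIs with quartiles of 5 and 13, and the highest count in 1 cell was 179. At least 1 Cxcl10 UMI was found in 3287 cells (48.0%), 1064 of them with 1 and 430 with 2. UMIs of Cxcl10 thus lay in many cells, and the 10% of members with most Cxcl10 UMIs (179 cells) carried 32.6% of the members' Cxcl10 UMIs. After thinning to 2000 UMIs a cell, 31.8% held at least 1, and how many of the cells with 1 or 2 UMIs took them from free RNA was not tested.

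The line at 3 UMIs fell inside a continuous range. The 262 cells with exactly 3 Cxcl10 UMIs, just inside the rule, held Irf1 at 379 CPM, Nfkbiz at 163 CPM and Ccl2 at 1859 CPM. The 430 cells with 2 UMIs, just outside it, held the same genes at 326, 138 and 1560 CPM. These neighbours lay closer to each other than the zero cells lay to either.

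Both accompanying markers were higher in the members. Irf1 (ENSMUSG00000018899, chr11:53770014-53778374, plus strand), the transcription factor that binds interferon-response elements, stood at 494 CPM in members and 185 CPM in zero cells, a ratio of 2.67 (2.56 to 2.77). Nfkbiz (ENSMUSG00000035356, chr16:55811375-55838899, minus strand) stood at 216 and 73.0 CPM, a ratio of 2.96 (2.78 to 3.14). Of 7891 genes with at least 10 CPM in the library and UMIs in at least 3 cells, 48 (0.608%) were at least 2-fold higher in the members besides Cxcl10 and 0 (0%) were at least 2-fold lower, while 2466 (31.3%) had a ratio above 1. Since the rule used this contrast, these counts and all ratios between members and zero cells in this library describe the cells and test nothing. Of the 48 higher genes, 35 belonged to one of the lists used here and 13 to none.

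**Figure D1:**
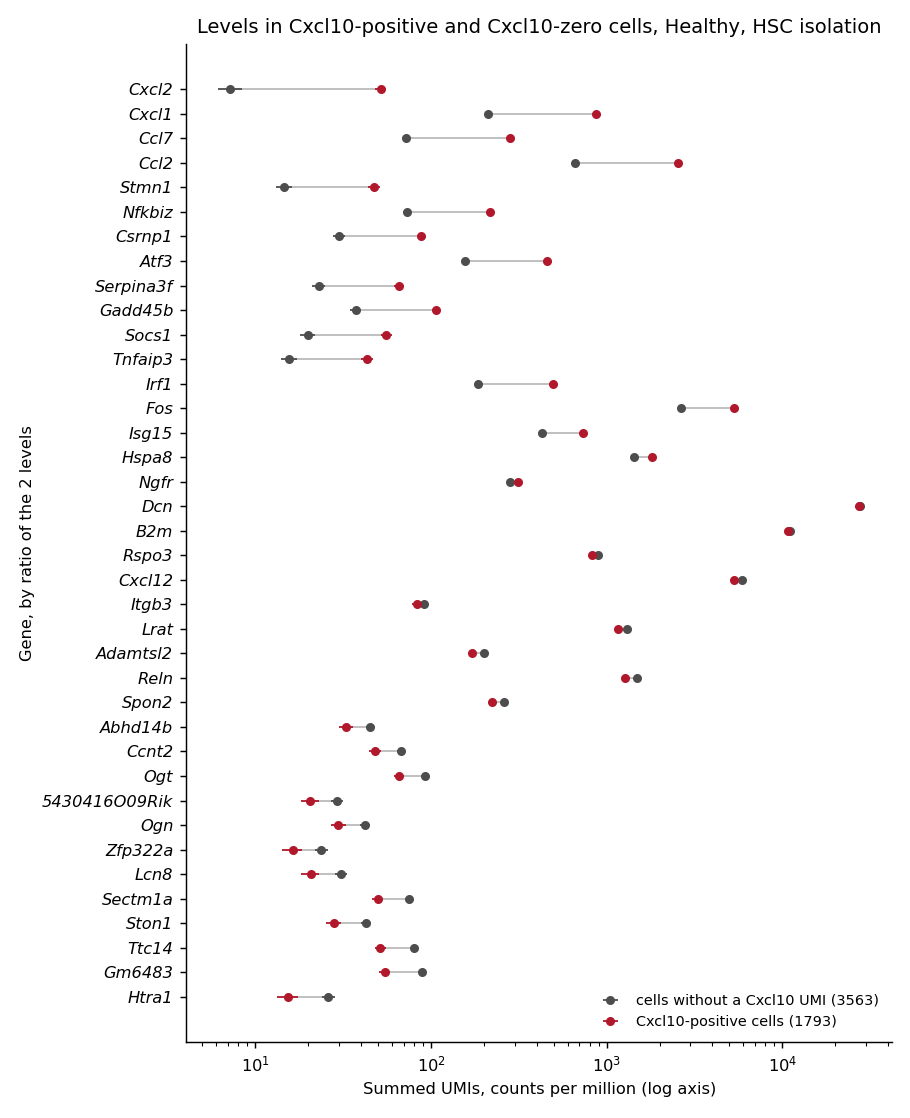
Levels of named genes in the healthy HSC-isolation library, in CPM on a log axis, for the 1793 Cxcl10-positive cells and the 3563 cells with no Cxcl10 UMI, with exact 95% Poisson intervals. Some chemokine genes, such as Ccl2 (2535 against 661 CPM), and NF-kB and immediate early genes lie to the right in the Cxcl10-positive cells. Stellate genes such as Reln (1271 against 1486 CPM) lie close together.

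Other chemokines were the genes with the largest ratios, but only a subset of the family was involved. Of 27 listed chemokine genes 11 passed the filter besides Cxcl10, 5 of them were at least 2-fold higher (0.608% of all genes were), and the median log2 ratio of the 11 was 0.32 against -0.06 over all 7891 genes. The neutrophil attractant Cxcl1 (ENSMUSG00000029380, chr5:90891241-90893115, plus strand) stood at 864 CPM in members and 211 CPM in zero cells, a ratio of 4.10 (3.97 to 4.24). Its relative Cxcl2 was low in both groups, at 51.6 and 7.21 CPM, with a ratio of 7.16 (6.02 to 8.55). The monocyte attractants lay in the same order: Ccl2 (ENSMUSG00000035385, chr11:82035571-82037453, plus strand) stood at 2535 and 661 CPM, a ratio of 3.83 (3.76 to 3.91), and its neighbour Ccl7 at 283 and 72.0 CPM, a ratio of 3.93. Chemokines that stellate cells make at rest did not share this pattern, with Cxcl12 at 5303 and 5864 CPM (ratio 0.904) and Cxcl16 at 107 and 105 CPM (ratio 1.01). Ccl3, Ccl4, Ccl17, Ccl20 and Ccl22 had no UMI in the members, and Cxcl11, the third CXCR3 ligand, was not among the genes of the files.

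Cxcl9, the other CXCR3 ligand measured, behaved differently from Cxcl1 and Ccl2. Its CPM of 21.5 in members and 4.06 in zero cells gave a ratio of 5.30, yet only 40 of the 1793 members held a Cxcl9 UMI, and 10 cells carried 85.6% of the members' Cxcl9 UMIs. The same share held by the 10 richest cells was 5.21% for Ccl2 and 2.76% for Irf1. Without the 21 cells of the library that held at least 3 Cxcl9 UMIs, a line drawn after the values were seen, the Cxcl9 ratio was 3.06. With the zero cells weighted to the depth of the members it was 2.28, and over the settings tried it ran from 1.53 to 14.8. These 21 cells, 12 of them members and 4 of them zero cells, also held Cd74 at 505 CPM and H2-Ab1 at 244 CPM, both of MHC class II antigen presentation, against 1.38 and 0.947 CPM in the other members.

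UMIs of more than 1 chemokine lay in most members. Both Cxcl1 and Ccl2 were detected in 1190 members (66.4%), Ccl2 alone in 366 (20.4%), Cxcl1 alone in 136 (7.59%) and neither in 101 (5.63%). Among the zero cells, 984 (27.6%) had both and 884 (24.8%) had neither. These shares depend on depth, which was higher in the members, and on free RNA, for which no background share could be measured here.

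NF-kB feedback genes were higher as a group. Of 29 listed, 22 passed the filter, 22 of the 22 had a ratio above 1 (31.3% of all genes did), 17 were at least 1.5-fold higher (1.67% of all genes were) and 8 at least 2-fold higher (0.608%), and the median log2 ratio was 0.82. After Nfkbiz, inducible inhibitors had the largest ratios on the list: Tnfaip3, which removes ubiquitin chains from the signalling complexes, stood at 43.3 and 15.5 CPM (ratio 2.78), the RNase gene Zc3h12a at 32.2 and 11.9 CPM (2.71) and the IkB family member Bcl3 at 36.4 and 13.8 CPM (2.63). Nfkbia, the gene of IkB alpha, stood at 1380 and 725 CPM (1.90), and the adhesion molecule Icam1 stood at 186 and 79.8 CPM (2.33). Genes of the NF-kB subunits differed less, with Rel at 1.84, Nfkb2 at 1.69 and Relb at 1.56, while Rela at 1.16 and Nfkb1 at 1.13 were nearly level.

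Genes answering interferons were higher unevenly. Of 24 type I interferon-stimulated genes that passed the filter, 23 had a ratio above 1 (31.3% of all genes did), 1 was at least 2-fold higher (0.608% of all genes were) and the median log2 ratio was 0.24. The antiviral gene Rsad2 was that gene, at 36.1 and 10.9 CPM (ratio 3.33), followed by Isg15 at 731 and 429 CPM (1.70), Ifit1 at 190 and 114 CPM (1.66) and Ifit3 at 413 and 263 CPM (1.57). Of 19 interferon-gamma-responsive genes, 11 were at least 1.5-fold higher (1.67% of all genes were) and 5 at least 2-fold higher (0.608% of all genes), with a median log2 ratio of 0.68. Among them the guanylate-binding protein gene Gbp5 stood at 59.9 and 21.5 CPM (2.78), the serpin gene Serpina3f at 66.0 and 22.9 CPM (2.88) and the signalling inhibitor Socs1 at 55.8 and 19.8 CPM (2.81). The antigen presentation genes of MHC class I, which interferons also raise, differed less. Of 14, 12 had a ratio above 1 (31.3% of all genes did), 0 reached 1.5-fold (1.67% of all genes did) and the median log2 ratio was 0.07. B2m, the most abundant of them and below 1, stood at 10716 and 11041 CPM (0.971).

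Genes of cytokine ligands and their receptors differed little. Ifnb1, Ifng and Csf2 had no UMI in the members, and 4 of 14 listed cytokine genes passed the filter, of which the macrophage growth factor Csf1 at 295 and 183 CPM (1.61) had the largest ratio. Of 14 receptor and adaptor genes 1 was at least 2-fold higher (0.608% of all genes were), the pattern receptor gene Tlr2 at 20.6 and 8.25 CPM (ratio 2.50). The interferon receptor genes Ifnar2 (1.05), Ifngr1 (1.03) and Ifngr2 (1.22) were near level. Among 11 genes on a list of IRF and STAT factors that also held SOCS signalling inhibitors, Irf1 and Socs1 passed 2-fold (0.608% of all genes did). Irf8 (1.80) and Socs3 (1.84) also passed 1.5-fold (1.67% of all genes did).

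The promoters of the leading genes show which of the letters read by these factors lie just upstream. The windows are the 250 bases before the start of the RefSeq gene model, on build GRCm38.p6, written 5′ to 3′ on the gene's strand with matches in capitals. The motifs searched on both strands were GAAANNGAAA (an interferon-stimulated response element, ISRE), TTCNNNGAA (a STAT-bound GAS element), GGGANNNNCC (an NF-kB site), TGANTCA (an AP-1 site of FOS and JUN proteins) and GAANNTTCNNGAA (a heat shock element).
Cxcl10: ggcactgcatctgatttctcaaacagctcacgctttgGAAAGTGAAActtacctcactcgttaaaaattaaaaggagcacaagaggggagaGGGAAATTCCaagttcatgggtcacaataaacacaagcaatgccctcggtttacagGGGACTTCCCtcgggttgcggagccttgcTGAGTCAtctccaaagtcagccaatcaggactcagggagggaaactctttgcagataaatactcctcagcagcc
Cxcl1: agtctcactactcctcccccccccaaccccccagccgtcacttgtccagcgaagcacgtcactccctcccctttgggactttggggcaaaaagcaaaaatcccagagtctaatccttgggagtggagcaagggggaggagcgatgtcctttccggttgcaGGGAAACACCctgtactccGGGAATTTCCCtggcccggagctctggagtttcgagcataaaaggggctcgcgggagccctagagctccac
Irf1: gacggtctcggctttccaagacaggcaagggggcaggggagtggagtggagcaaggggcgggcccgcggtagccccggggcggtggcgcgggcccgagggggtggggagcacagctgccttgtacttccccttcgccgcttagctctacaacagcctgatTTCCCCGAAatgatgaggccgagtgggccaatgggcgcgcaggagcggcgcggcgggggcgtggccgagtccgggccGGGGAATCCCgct
Gbp5: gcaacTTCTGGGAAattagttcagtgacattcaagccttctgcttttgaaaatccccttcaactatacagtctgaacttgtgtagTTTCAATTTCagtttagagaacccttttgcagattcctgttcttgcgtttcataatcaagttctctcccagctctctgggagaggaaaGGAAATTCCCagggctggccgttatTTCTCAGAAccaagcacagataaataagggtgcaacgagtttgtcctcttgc

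The Cxcl10 window, chr5:92348890-92349139 on the minus strand, is shown because this gene defines the cells. It held an ISRE (GAAAGTGAAA, 213 to 204 bases before the start), NF-kB sites GGGAAATTCC and GGGACTTCCC (159 to 150 and 103 to 94 bases before the start) and the AP-1 site TGAGTCA at 74 to 68 bases. The Cxcl1 window, chr5:90890995-90891244 on the plus strand, held NF-kB letters GGGAAACACC and, as a match overlapping one on the other strand, GGGAATTTCC, without an ISRE or a GAS element. The Irf1 window, chr11:53769764-53770013 on the plus strand, held the GAS element TTCCCCGAA and an NF-kB match on the other strand that reads GGGGAATCCC here. A second Irf1 window, not printed, held no match. The Gbp5 window, chr3:142496684-142496933 on the plus strand, held GAS elements TTCTGGGAA and TTCTCAGAA, an ISRE on the other strand, TTTCAATTTC, and an NF-kB match on the other strand, GGAAATTCCC.

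Windows were found for 34 of the 48 higher genes, not among them Nfkbiz, Ccl2 and Ccl7, and the first window of each gene was counted. NF-kB letters lay in 15 of the 34 (44.1%) against 17.3% of the first windows of all 27025 genes, ISRE letters in 4 (11.8%) against 3.04%, GAS letters in 5 (14.7%) against 7.18%, AP-1 letters in 4 (11.8%) against 6.87% and heat shock elements in 0 against 0.4%. The 27025 genes were not limited to those that passed the expression filter, as the higher genes were, so the sets are unlike. A match of letters is a description of the sequence and does not show that a factor binds there.

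Apart from the list of the accompanying markers, Irf1 and Nfkbiz, immediate early genes were the list with the highest median. All 22 that passed the filter had a ratio above 1 (31.3% of all genes did), 19 were at least 1.5-fold higher (1.67% of all genes) and 10 at least 2-fold higher (0.608%), and the median log2 ratio was 0.99. Atf3, a stress-induced factor, stood at 456 and 157 CPM (ratio 2.91), the nuclear receptor gene Nr4a1 at 157 and 58.9 CPM (2.66), Klf4 at 334 and 127 CPM (2.62) and Junb at 3972 and 1908 CPM (2.08). Fos lay just under the line at 5319 and 2663 CPM (2.00). The zero cells held these genes at high levels as well: the list summed to 26405 CPM in members and 13919 CPM in zero cells. Fos was detected in 98.7% of members and 91.4% of zero cells, and Atf3 in 63.9% and 29.3%, shares that also depend on depth. Sums over cells do not show whether single cells differed by degree or by presence, and this was not tested.

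Other stress lists differed by less. All 15 heat shock genes had a ratio above 1, as did 31.3% of all genes, 0 reached 2-fold and the median log2 ratio was 0.33, with Dnajb1 highest at 302 and 182 CPM (1.66) and Hspa8 at 1817 and 1428 CPM (1.27). In the unfolded protein and integrated stress response, 2 of 13 were at least 2-fold higher (0.608% of all genes were), Gadd45b at 107 and 37.3 CPM (2.88) and the phosphatase subunit gene Ppp1r15a at 322 and 144 CPM (2.23), while the endoplasmic reticulum chaperone genes Hspa5 (1.17) and Hsp90b1 (1.03) were near level. The 6 hypoxia genes that passed had a median log2 ratio of -0.00, with Ldha at a ratio of 1.00. Of 9 p53 targets 1 was at least 2-fold higher (0.608% of all genes were), the cell cycle inhibitor Cdkn1a at 104 and 39.3 CPM (2.65), and Bax stood at 1.00.

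**Figure D2:**
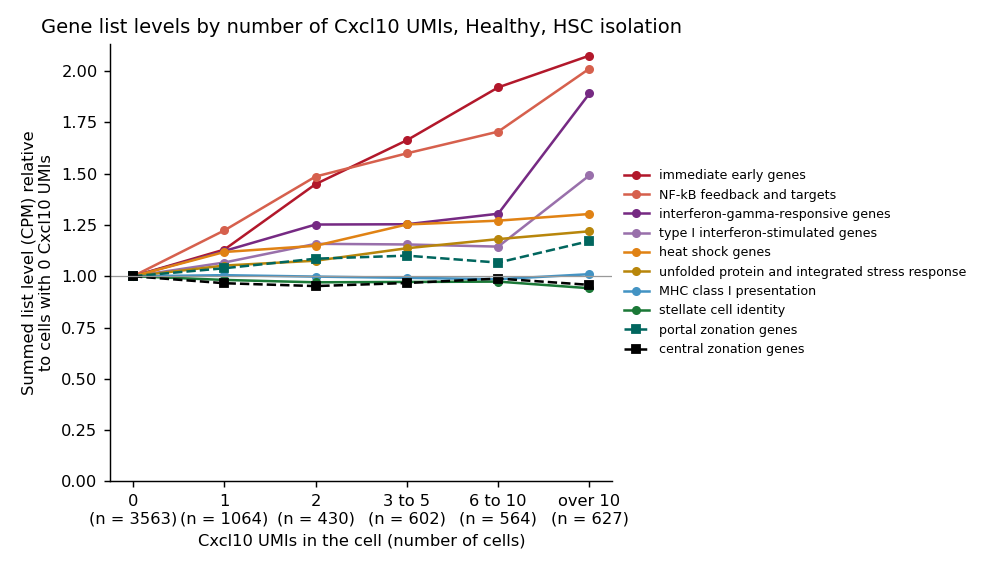
Summed level of each gene list across 6 bins of cells by their Cxcl10 UMIs in the healthy HSC-isolation library, relative to the cells with 0 Cxcl10 UMIs. The immediate early list goes from 13919 CPM in the zero cells to 28898 CPM in the last bin and the NF-kB list from 2132 to 4292 CPM, each higher from bin to bin, against 16412 and 19230 CPM for the portal and 11257 and 10784 CPM for the central list. The portal sum includes the chemokine gene Ccl2, which by itself goes from 661 to 3378 CPM between the same bins.

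The same genes followed the amount of Cxcl10 within the library. Over cells with 0, 1, 2, 3 to 5, 6 to 10 and more than 10 Cxcl10 UMIs (3563, 1064, 430, 602, 564 and 627 cells), Irf1 stood at 185, 251, 326, 399, 462 and 601 CPM, a step up in each bin. Cxcl1 stood at 211, 325, 487, 625, 735 and 1175 CPM, and Nfkbiz at 73.0, 103, 138, 176, 213 and 252 CPM. Reln, a stellate gene, went the other way, by less in proportion, at 1486, 1416, 1399, 1350, 1274 and 1202 CPM. The interferon-gamma-responsive list differed mostly at the top, with sums of 2027, 2110 and 3059 CPM in the last 3 bins.

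Stellate identity was kept in the members at slightly lower relative levels. Of 20 identity genes, 1 had a ratio above 1 (31.3% of all genes did) and 0 passed 1.5-fold in either direction, with a median log2 ratio of -0.08 against -0.06 over all genes. The retinol esterifying enzyme Lrat stood at 1168 and 1312 CPM (0.890), Reln at 1271 and 1486 CPM (0.855) and the matrix gene Dcn had a ratio of 0.984. Myofibroblast genes were not raised as a group: the 9 that passed the filter had a median log2 ratio of -0.08, and the collagen genes Col1a1 (0.917) and Col3a1 (0.913) lay below 1.

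The lower side of the comparison was shallow. Only 16 genes (0.203%) were at least 1.5-fold lower in the members. Among the named genes the lowest ratios were those of the secreted protease gene Htra1 at 15.3 and 26.0 CPM (0.587), Gm6483 (0.613), Ttc14 (0.642), Ston1 (0.651), Sectm1a (0.667), Lcn8 (0.672), Zfp322a (0.685) and the small leucine-rich proteoglycan gene Ogn (0.699). Of these, Htra1 is on the portal and Sectm1a on the central list.

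A further higher gene stood apart from the chemokine pattern. Stmn1, a tubulin-binding protein gene that is abundant in dividing cells, stood at 47.5 and 14.6 CPM (3.25), but 10 cells held 72.2% of the members' Stmn1 UMIs. In the 39 cells of the library with at least 3 Stmn1 UMIs, 16 of them members and 9 zero cells, the mitotic genes stood at 668 CPM for Top2a, 567 CPM for Cdk1 and 329 CPM for Mki67, against 0.806, 6.96 and 10.3 CPM in the other members. Without those 39 cells, chosen after the values were seen, the Stmn1 ratio was 1.09. The member set thus included a few cells with cell cycle genes, and the Stmn1 ratio rested on them.

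Zonation was compared side by side with these lists. Each cell was scored by the study's 52 portal and 29 central genes, which its authors chose on these same cells, as mean standardised portal minus mean standardised central expression, and split into a portal (PaHSC-like) and a central (CaHSC-like) range. PaHSC-like cells were 44.9% of members (42.6 to 47.2%) and 42.6% of zero cells (40.9 to 44.2%), and the median scores were -0.01 and -0.07 with SDs over cells of 0.64 and 0.68. Conversely, 805 of 2988 PaHSC-like cells (26.9%) and 988 of 3862 CaHSC-like cells (25.6%) were members. Cxcl10 itself stood at 490 CPM in PaHSC-like and 449 CPM in CaHSC-like cells. When genes that also sat on another list were left out of the score, the order turned, with 464 and 470 CPM, so no direction between the zones can be read from these values. A total of 495 cells lay within 0.1 SD of the line between the ranges.

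The genes of the zonation lists were compared in the same way. Of 52 portal genes, 24 had a ratio above 1 (31.3% of all genes did) and 3 were at least 2-fold higher (0.608% of all genes were), namely Ccl2, Serpina3g (131 and 53.8 CPM, ratio 2.43) and the kinase-like gene Trib1 (51.0 and 25.3 CPM, ratio 2.02), with a median log2 ratio of -0.03. The portal landmark Ngfr, a neurotrophin receptor gene, stood at 315 and 280 CPM (1.12, 1.08 to 1.17). Of 29 central genes, 3 had a ratio above 1, 0 were 2-fold higher and the median was -0.15, with the Wnt coreceptor ligand gene Rspo3 at 827 and 891 CPM (0.929) and Adamtsl2 at 172 and 200 CPM (0.859). The ranges were then set without the genes that also sat on another list, Ccl2 among them. Within each zone the contrast between members and zero cells was of similar size for Irf1, with ratios of 2.62 in PaHSC-like and 2.70 in CaHSC-like cells, and for Cxcl1, with 4.07 and 4.09. It was less alike for Atf3 (3.45 and 2.68), Klf4 (3.11 and 2.39), Tlr2 (1.96 and 3.27), Stmn1 (4.44 and 2.17) and Cxcl9 (14.3 and 1.66), the last of which rested on few cells. Ccl2 stood at 3501 CPM in PaHSC-like members, 980 CPM in PaHSC-like zero cells, 1759 CPM in CaHSC-like members and 425 CPM in CaHSC-like zero cells.

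**Figure D3:**
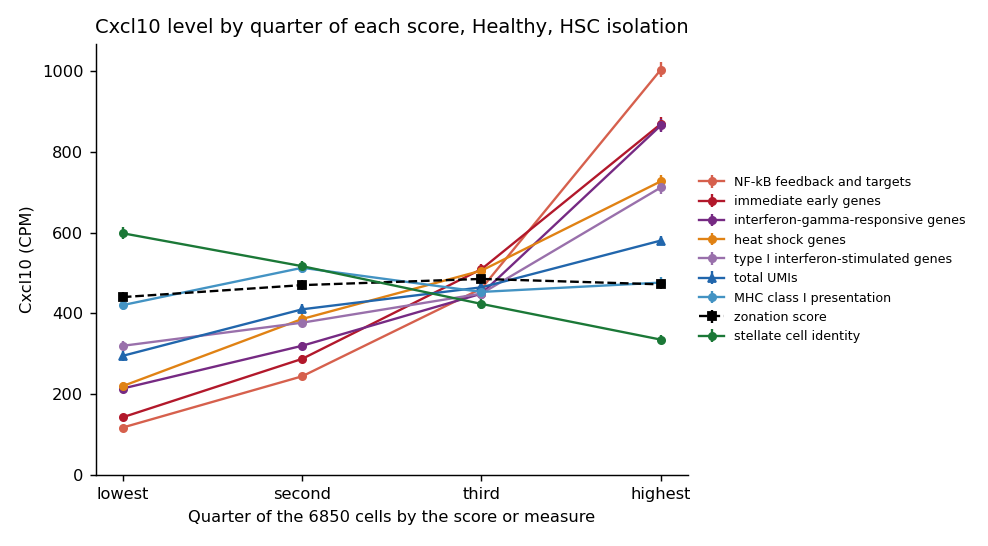
Cxcl10 level, in CPM, in 4 equal groups of cells of the healthy HSC-isolation library ranked by each list score, by the zonation score and by technical measures. Cxcl10 goes from 117 CPM in the lowest to 1004 CPM in the highest group by the NF-kB score, and from 440 to 472 CPM across the zonation score.

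All 6850 cells were also ranked by list scores without Cxcl10. Over 4 equal groups of cells from the lowest to the highest NF-kB score, Cxcl10 stood at 117, 244, 461 and 1004 CPM, and members made up 6.19% of the lowest and 51.9% of the highest group. By the immediate early score it stood at 143, 287, 509 and 869 CPM, with 6.13% and 49.9% members. The interferon-gamma-responsive score (214 to 865 CPM), the heat shock score (220 to 727 CPM, with 12.9% and 38.6% members), the type I interferon score (320 to 712 CPM) and the unfolded protein and stress response score (263 to 707 CPM) ran the same way from the lowest to the highest group. By the zonation score without genes of the other lists it stood at 440, 470, 485 and 472 CPM, with 25.4, 25.8, 27.7 and 25.8% members, which is nearly flat. The MHC class I score (420, 513, 453 and 476 CPM) was also nearly flat, and the stellate identity score ran downward from 598 to 335 CPM. Technical measures went along with Cxcl10 as well: its level went from 295 CPM in the group with the fewest UMIs to 580 CPM in the group with the most, and from 601 to 334 CPM with a higher mitochondrial share. When the zero cells were weighted to the depth of the members, 41 genes were at least 2-fold higher in place of 48, and the same number of lists, 3, had a median log2 ratio of at least 0.5. The part of the mitochondrial share was not tested.

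Cells with Cxcl10 were also found after injury, in cells the rule did not use. At least 3 Cxcl10 UMIs were held by 1357 of 7310 cells 72 h after CCl4 (18.6%, 17.7 to 19.5%) and by 1236 of 5454 cells after 6 weeks of CCl4 (22.7%, 21.6 to 23.8%), both from the HSC isolation. These libraries were deeper, with median UMIs of 11344 and 9893, and after thinning each cell to 2000 UMIs the shares were 11.5% in the healthy, 4.17% in the 72 h and 8.07% in the 6 week library. The levels had the same order, at 467, 182 and 340 CPM of Cxcl10. By these measures the uninjured library was the highest of the 3, although with 1 library each the spread between mice is unknown. At least 1 Cxcl10 UMI was held by 48.0% of healthy and 49.2% of 6 week cells before thinning. After thinning the shares were 31.8% and 25.7%.

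The genes of the uninjured members recurred in those libraries. Of the 12 genes with the largest ratios, 12 had a ratio above 1 at 72 h (50.9% of 7630 genes did) and 12 at 6 weeks (44.5% of 7606 genes), and 5 and 10 were at least 2-fold higher (0.157% and 0.342% of genes). The 12 genes with the smallest ratios lay between 0.644 and 0.974 at 72 h, where 49.1% of all genes were below 1, and between 0.407 and 0.945 at 6 weeks, where 55.5% were. At 72 h 0 of the 12 were at least 2-fold lower (0.0917% of all genes were), and at 6 weeks 1 was, Htra1 (0.316% of all genes were). Irf1 had ratios of 2.19 and 2.38, Nfkbiz of 1.51 and 1.82, and Ccl2 of 4.07 and 4.51. The NF-kB and interferon-gamma-responsive lists had median log2 ratios of 0.54 and 0.57 at 72 h and of 0.56 and 0.71 at 6 weeks against 0.00 and -0.02 over all genes. The immediate early list had smaller medians than in the uninjured library, at 0.35 and 0.62, the second of them above that of the NF-kB list, and the heat shock list stood at 0.03 and 0.37. Ngfr had ratios of 1.26 and 1.18 and Adamtsl2 of 0.863 and 0.682. Portal genes (0.16 and 0.12) lay slightly above and central genes (-0.06 and -0.18) slightly below the median of all genes in both libraries.

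**Figure D4:**
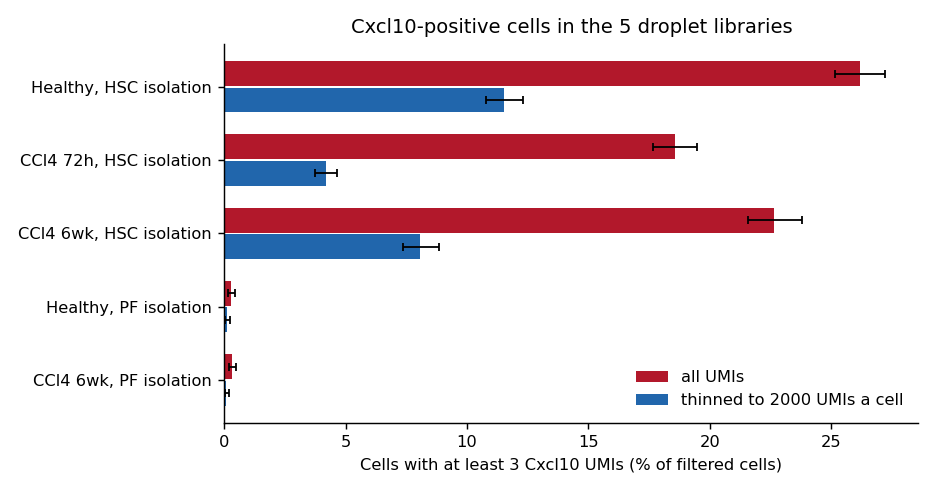
Share of cells with at least 3 Cxcl10 UMIs in the 5 droplet libraries, in percent, for all UMIs and after thinning each cell to 2000 UMIs, with exact 95% binomial intervals. The 3 HSC-isolation libraries sit between 18.6 and 26.2% before thinning, and both PF-isolation libraries sit near 0.3%.

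The PF isolation gave almost no such cells. At least 3 Cxcl10 UMIs were held by 16 of 5737 cells of the healthy PF library (0.279%, 0.159 to 0.453%) and by 17 of 5648 cells after 6 weeks of CCl4 (0.301%, 0.175 to 0.481%), at 6.59 and 6.05 CPM. Against the zero cells of the same library, Ccl2 in these few cells had ratios of 37.4 and 21.7. Atf3 had ratios of 0.657 and 1.02, and Fos of 0.974 and 0.860. These libraries held mostly other mesenchymal cells, with 36 and 29 stellate-class cells, among which 0 were members. Those cells held the stellate gene Reln at 55.6 and 197 CPM, against 1405 CPM in the healthy HSC library, at median depths of 3166 and 3387 UMIs. A count of 0, read as under 3 cells, allows a share of up to 8.33% and 10.3% of such cells. Immediate early genes were not uniformly lower there than in the healthy HSC library: Fos stood at 4827 and 4266 CPM against 3597 CPM, Atf3 at 375 and 325 CPM against 262 CPM and Egr1 at 921 and 819 CPM against 641 CPM, while Junb stood at 2418 and 2073 CPM against 2646 CPM. By contrast Ccl2 stood at 66.1 and 16.2 CPM against 1334 CPM, and Irf1 at 47.6 and 45.6 CPM against 297 CPM. Cell class and isolation cannot be told apart between these libraries.

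Few cell barcodes were common to libraries. The healthy HSC library had 74, 56, 55 and 45 barcodes in common with the 72 h, 6 week, healthy PF and 6 week PF libraries, of which 17, 15, 13 and 15 were members. These numbers are small against 1793 members.

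Full-length libraries gave values from a separate preparation. On the plate of 3 healthy mice, for which the labels give 1 PF and 2 HSC isolations without saying which portion had which, the portions named Uninjured 2 and Uninjured 3 held 150 and 156 kept wells, all of the stellate class, and the portion named Uninjured 1 held 31 kept wells of which 0 were stellate. At least 10 Cxcl10 reads were found in 60 wells of Uninjured 2 (40.0%, 32.1 to 48.3%) and in 55 wells of Uninjured 3 (35.3%, 27.8 to 43.3%), and 77 and 84 wells had none. Cxcl10-positive stellate cells were therefore present in both portions at overlapping shares.

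Both markers were higher in the positive wells of both portions. Irf1 stood at 976 RPM (reads per 1000000 reads of the group of wells) in positive and 511 RPM in zero wells of Uninjured 2 (ratio 1.91), and at 1013 and 275 RPM in Uninjured 3 (3.68). Nfkbiz stood at 621 and 291 RPM (2.14) and at 657 and 163 RPM (4.03). The wells overlapped widely: in Uninjured 2 the positive wells ran from 0 over a median of 892 to 5320 RPM of Irf1, and the zero wells from 0 over 275 to 3292 RPM. Reln was level in both portions, with ratios of 1.00 and 0.93.

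**Figure D5:**
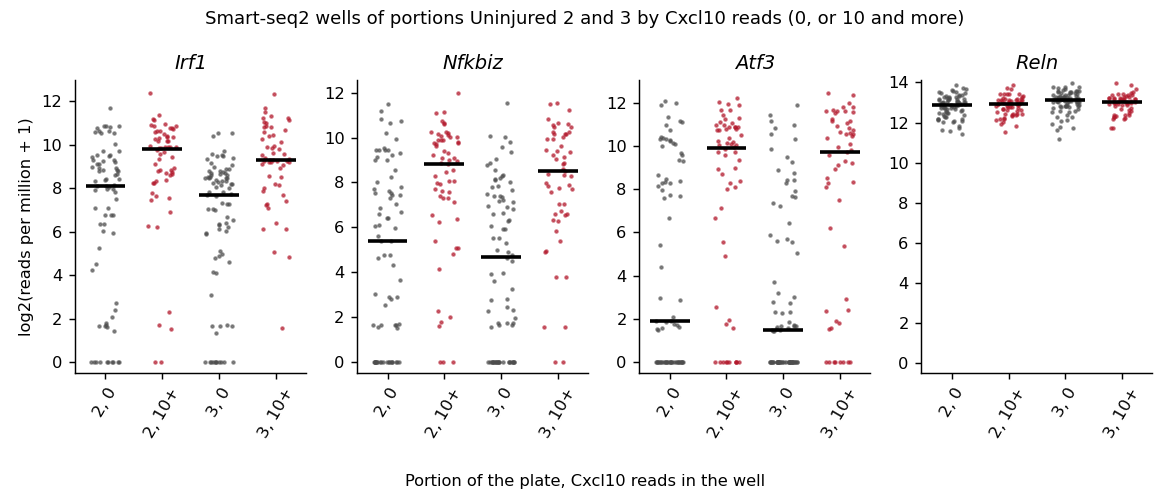
RPM of Irf1, Nfkbiz, Atf3 and Reln, on a log2 axis after adding 1, in single wells of both portions with stellate cells, for wells with at least 10 Cxcl10 reads and wells with none, with the median of each set of wells. The positive wells have higher medians of Irf1 in both portions (892 against 275 RPM in Uninjured 2), and the sets overlap.

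Of the 12 genes with the largest ratios in the droplet library, 10 were higher in the positive wells of both portions, where 22.6% of 7915 genes were (46.4% of 8399 genes in Uninjured 2 and 47.3% of 8404 in Uninjured 3). At least 2-fold higher in both were 6, where 0.91% of all genes were (5.51% and 6.77% in each portion). These 6 were Nfkbiz, Cxcl1, Atf3, Serpina3f, Socs1 and Tnfaip3. Without the positive well highest in each gene, 9 of the 12 were higher in both portions and 4 at least 2-fold higher, since Cxcl1 (1.72) and Nfkbiz (1.92) went under 2-fold in Uninjured 2 and Ccl7 (0.907) below 1 in Uninjured 3. The median of Cxcl1 in Uninjured 2 was 0 RPM in positive and in zero wells. Of 11 measured genes with the smallest ratios, 3 (Ttc14, Ston1 and 5430416O09Rik) were lower in both portions, a share close to the 28.8% of all genes that were. At least 2-fold lower were Zfp322a and Ccnt2 in Uninjured 2 (8.76% of all genes were) and Htra1 in Uninjured 3 (8.46%). The immediate early list had median log2 ratios of 0.72 and 1.35, the NF-kB list of 0.14 and 0.65 and the interferon-gamma-responsive list of 0.13 and 0.99, against -0.05 and -0.04 over all genes. The portal list (-0.19 and -0.27), the central list (-0.04 and 0.06) and the identity list (-0.05 and -0.14) stayed below the immediate early list in both portions. The portal median lay below the central one in both portions, unlike in the HSC-isolation droplet libraries. Ngfr (0.866 and 0.820) and Adamtsl2 (1.15 and 1.34) also lay on the other side of 1 from those libraries. Itgb3 (0.922 and 0.786) and Rspo3 (0.886 and 0.839) were below 1, as in the healthy HSC library. The NF-kB and interferon-gamma medians were of different size in the portions, and this difference was not tested.

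All HSC-isolation libraries passed through the same perfusion, digestion and gradient, so a response to the isolation and a state of the cells in the liver cannot be told apart here.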

How the data were processed

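The authors aligned the droplet reads to mm10, with Cell Ranger 2.1.0 and STAR in the submitters' processing notes, and the deposited matrices hold whole UMI counts, without normalisation, for each gene of each barcode. For the Smart-seq2 plates the authors deposited read counts per gene and well, after alignment with STAR to mm10 with eGFP and spike-in sequences and counting with rpkmforgenes. The gene and barcode lists and the plate layout served only to name rows and cells, and 5 of the 6 plates were not used here.

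Cells with at least 300 genes and at most 30% mitochondrial UMIs were kept. Counts were summed per group and given as CPM, and genes with at least 10 CPM over the library and UMIs in at least 3 cells were compared. With 1 library per group no test was made. Intervals are exact 95% Poisson (for ratios, conditional binomial) and Clopper-Pearson intervals, and a ratio of 2 was the rule of size. Depth was matched by thinning each cell to 2000 UMIs, which left out 114, 0, 0, 344 and 375 shallower cells of the healthy HSC, 72 h, 6 week HSC, healthy PF and 6 week PF libraries. Wells were kept within 3 median absolute deviations of the plate's median total and gene number and spike-in share, and a well with at least 10 Cxcl10 reads was called positive. Counts of 279 symbols that stood on more than 1 row of the plate's table were summed.

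No doublet caller was run, and a repeat without the 5% of cells with most UMIs stands in its place. Named genes were the 12 with the largest and the 12 with the smallest ratio among genes of at least 20 CPM that kept their side when zero cells were weighted to the members' depth, the markers, and fixed genes of each list. Genes named beyond that rule were chosen after their values were seen. The members and all 27 lists were chosen with earlier results of these data known. Zonation ranges came from a split of the score into 2 groups by k-means. Python 3.11.15, numpy 2.4.6, scipy 1.17.1, pandas 2.3.3, scikit-learn 1.9.0 and matplotlib 3.10.9 were used, and the comparison was tested on simulated counts. Values of some listed genes are not reported here.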

Additional observations from a re-analysis of the deposited data

How the results depend on the processing

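The share of Cxcl10-positive cells depended on its line: 26.2% held at least 3 UMIs, 48.0% at least 1, 32.5% at least 2 and 19.9% at least 5, and 11.5% held 3 after thinning to 2000 UMIs. Thinned shares were 4.17% at 72 h and 8.07% at 6 weeks of CCl4 in the HSC isolation, and 0.111% and 0.0759% in the healthy and 6 week PF isolation. Against 48 genes at least 2-fold higher, 25 were counted with members of at least 1 UMI, 25 with a filter of 50 CPM (3086 genes compared), 660 with no filter beyond 3 cells (14318 genes compared) and 132 at 1.5-fold. Against 0 genes at least 2-fold lower, there were 2 with at least 5 UMIs, 1 with zero cells weighted to the members' depth, 3 with the mean of per-cell CPM, 1 without the 5% of cells with most UMIs, 1 without non-mesenchymal cells, 3 within PaHSC-like cells, 2 within CaHSC-like cells, 412 with no filter and 16 at 1.5-fold. Thinning gave 47.7% PaHSC-like members and 44.7% PaHSC-like zero cells. The causes of these differences were not tested, other than fewer or more genes compared. Of 17 functional lists 3 had a median log2 ratio of at least 0.5, and 2 within CaHSC-like cells. Over 72 named genes and 10 settings, 548 ratios lay within the counting interval of the value reported and 171 did not. Over all settings 20 values, of 8 genes, lay on the other side of 1, none of them of the largest or smallest ratios, and Stmn1 was the one largest-ratio gene that went under 2-fold under some setting. The repeats without cells rich in Cxcl9 or Stmn1, by equal groups of cells, on stellate-class cells alone, without the highest well of a gene, and with thinning and list-free zonation scores together were added after seeing the data. No paired analysis was possible because each group held 1 library. Depth limits low genes such as Cxcl2 and Cxcl9, and the spread between mice is unknown in the pooled libraries.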

Other observations

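Of the 13 genes at least 2-fold higher in the Cxcl10-positive cells that sat on no list, several have known roles next to those of the lists. Csrnp1, an immediate early nuclear protein gene, stood at 87.8 CPM in members and 30.1 CPM in zero cells (ratio 2.92), Arid5a, whose product stabilises messenger RNA of inflammatory genes, at 33.2 and 12.9 CPM (2.57), and the inflammatory caspase gene Casp4 at 84.5 and 36.3 CPM (2.33). Others belong to metabolism and metal binding, with the hexokinase gene Hk2 at 34.2 and 13.3 CPM (2.56) and the metallothionein gene Mt2 at 599 and 289 CPM (2.07). These genes were named after their values were seen.

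Stellate-class cells alone gave member shares of 26.2% of 6849 cells in the healthy, 19.2% of 6294 cells in the 72 h and 22.7% of 5357 cells in the 6 week HSC-isolation library. In the 72 h library 151 of 1016 cells of other classes (14.9%) also held at least 3 Cxcl10 UMIs. The few stellate-class cells of the PF libraries, 36 and 29, held the fibroblast gene Clec3b at 95.3 and 94.4 CPM.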
